A study of Mus musculus with 10 samples.

Results

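The melanocyte lineage genes described here are Sox10, Mitf, Tyr, Tyrp1, Dct, Pmel and Mlana, 7 of the 32285 genes counted in single cells from SW1 tumors. They were taken as a list of genes known from melanocytes, chosen with earlier results of these data known. Each was counted in barcodes without a UMI of Ptprc, the gene of the pan-leukocyte antigen CD45, and in barcodes with at least 1 such UMI. A barcode is 1 droplet, usually 1 cell, and a unique molecular identifier (UMI) is the tag that marks 1 captured RNA molecule. Barcodes were kept with at least 500 genes and at most 10% of UMIs from mitochondrial genes, and those without Ptprc were kept only with at most 5 UMIs summed over the macrophage complement genes C1qa, C1qb and C1qc.

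The study asked how L-fucose (L-fuc), a sugar given in the drinking water, affects dendritic cells in tumors. SW1, a mouse melanoma cell line, was grown for 10 days, as the labels give it, under the skin of female C3H/HeJ mice aged 4 to 6 weeks at injection, and mice then drank control water or water with 100 mM L-fuc. A pretreatment group was taken at day 0, and tumors of the control and L-fuc arms were taken after 7 and 21 days of treatment. Each of these 5 conditions gave 1 pool of several mice and 1 library of RNA counts. The labels give 3 pretreatment mice and, in different places, 5 or 6 mice for each arm, and 1 of the label fields gives the L-fuc dose in nM where another gives mM. The study's methods give a longer growth before treatment than the labels do, so the age of the tumors at day 0 is not certain. All mice carried SW1 tumors, so there was no tumor-free skin or normal melanocyte sample, and no library of SW1 cells in culture.

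Cells were sorted for CD45 before capture according to the labels, yet Ptprc-negative barcodes were 32.7% of the kept barcodes at pretreatment day 0, 67.7% and 44.8% in control and L-fuc at day 7, and 35.7% and 40.1% in control and L-fuc at day 21, the order of libraries kept below. There were 480, 12122, 4046, 562 and 474 of them in that order, against 788, 4940, 3962, 733 and 485 Ptprc-positive barcodes. Their median depth ran from 6043.5 UMIs at control day 7 to 20470 at control day 21. At day 7 a hemoglobin UMI stood in 54.2% of the Ptprc-negative barcodes of control and in 95.6% of those of L-fuc, against 0.208% to 11.03% at the other times. The 10 pairs of libraries shared 2 to 222 kept barcode sequences each, at most 2.73% of a library, and no barcode was removed for that. No doublet caller was run.

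SOX10 is a transcription factor of the neural crest, the embryonic cells that give rise to melanocytes and to Schwann cells, and it activates the gene of MITF. MITF drives the pigment programme of melanocytes, and other forms of it, made from other promoters, act in macrophages, osteoclasts and mast cells. Its targets include tyrosinase (Tyr), the rate-limiting enzyme of melanin synthesis, the related enzymes TYRP1 and DCT, and PMEL and MLANA, proteins of the melanosome, the organelle in which pigment is made. Melanomas can lose the pigment programme and keep neural crest genes.

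On GRCm38 with the GENCODE vM21 annotation, Sox10 (ENSMUSG00000033006) lies at chr15:79154908-79165240 on the minus strand and Mitf (ENSMUSG00000035158) at chr6:97807052-98021349 on the plus strand, where 8 transcripts are annotated. Tyr (ENSMUSG00000004651) lies at chr7:87424771-87493512 (minus), Tyrp1 (ENSMUSG00000005994) at chr4:80834123-80851719 (plus) and Dct (ENSMUSG00000022129) at chr14:118012790-118052244 (minus). Pmel (ENSMUSG00000025359) lies at chr10:128704195-128720238 (plus) and Mlana (ENSMUSG00000024806) at chr19:29697824-29708634 (plus). Exons of Pmel overlap exons of Cdk2 and Dgka on the opposite strand, and whether the counting used strand is not given in the sources used here, so a Pmel UMI may belong to either neighbour. The counts are per gene, so the Mitf transcripts of melanocytes and of other cells were added together.

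The stretches before the starts of the 3 pigment enzyme genes are shown because their UMI counts differed, with Tyrp1 detected, Dct rare and Tyr at 0. These counts do not rank the 3 genes by level, since capture was not measured. They were searched for CATGTG, a core that MITF is known to bind, and for ACAAAG, a core of SOX factors, each on both strands, and matches are in capitals. The sequences run 5′ to 3′ in the direction of the gene, from the RefSeq table for GRCm38.p6, which matched 4 of the 7 members with 6 starts.

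Dct, chr14:118052247-118052496, minus strand: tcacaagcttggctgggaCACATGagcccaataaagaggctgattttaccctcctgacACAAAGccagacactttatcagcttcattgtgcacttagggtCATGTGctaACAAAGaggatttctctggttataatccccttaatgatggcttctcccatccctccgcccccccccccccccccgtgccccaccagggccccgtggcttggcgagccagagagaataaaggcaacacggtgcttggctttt

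Tyrp1, chr4:80833963-80834122, plus strand: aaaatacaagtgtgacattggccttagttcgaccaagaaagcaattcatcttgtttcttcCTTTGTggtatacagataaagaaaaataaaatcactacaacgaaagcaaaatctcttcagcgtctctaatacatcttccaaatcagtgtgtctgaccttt

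Tyr, chr7:87493513-87493762, minus strand: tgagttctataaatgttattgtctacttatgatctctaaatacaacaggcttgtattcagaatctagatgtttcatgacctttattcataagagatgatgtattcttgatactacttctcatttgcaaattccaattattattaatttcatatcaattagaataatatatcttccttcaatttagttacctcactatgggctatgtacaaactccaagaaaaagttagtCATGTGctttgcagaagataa

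The Dct stretch held CATGTG at 2 places, which begin 232 and 150 bases before the start, and ACAAAG at 2 places, at 192 and 141 bases. The Tyr stretch held 1 CATGTG, at 21 bases, and no ACAAAG. Tyrp1 held 1 ACAAAG on the other strand, at 190 bases, and 1 CATGTG at 46 bases that lies in a stretch covered by an annotated exon and is not shown. None of the 3 Mitf starts in the table had either core in the 250 bases before it. Over all 32851 starts in the table, 12.3% had CATGTG and 16.5% had ACAAAG in those 250 bases, and the cores do not overlap each other. These matches describe the letters only: Tyr, with a CATGTG close to its start, gave no UMI.

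In Ptprc-negative barcodes Sox10 was detected widely, Mitf in a smaller share, Tyrp1 in few barcodes and Dct and Pmel in very few, while Mlana was close to 0 and Tyr was at 0. Pooled over the 17684 Ptprc-negative barcodes, Sox10 had 55927 UMIs in 70.8% of barcodes, Mitf 6014 UMIs in 24.2% and Tyrp1 2966 UMIs in 7.76%. Dct had 126 UMIs in 0.492% and Pmel 87 UMIs in 0.435%. Mlana had 8 UMIs in all, fewer than the 10 it had in Ptprc-positive barcodes. Tyr had 0 of 151093336 UMIs, which allows a level of up to 0.0199 CPM, the UMIs of a gene in every 1000000 UMIs of a sum, and 0 of 17684 barcodes, which allows a share of up to 0.0170% of barcodes with a UMI. How well the RNA of each gene was captured was not measured, so these counts do not rank the genes by level. All intervals and limits given here are 95% and cover counting error only.

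**Figure D1:**
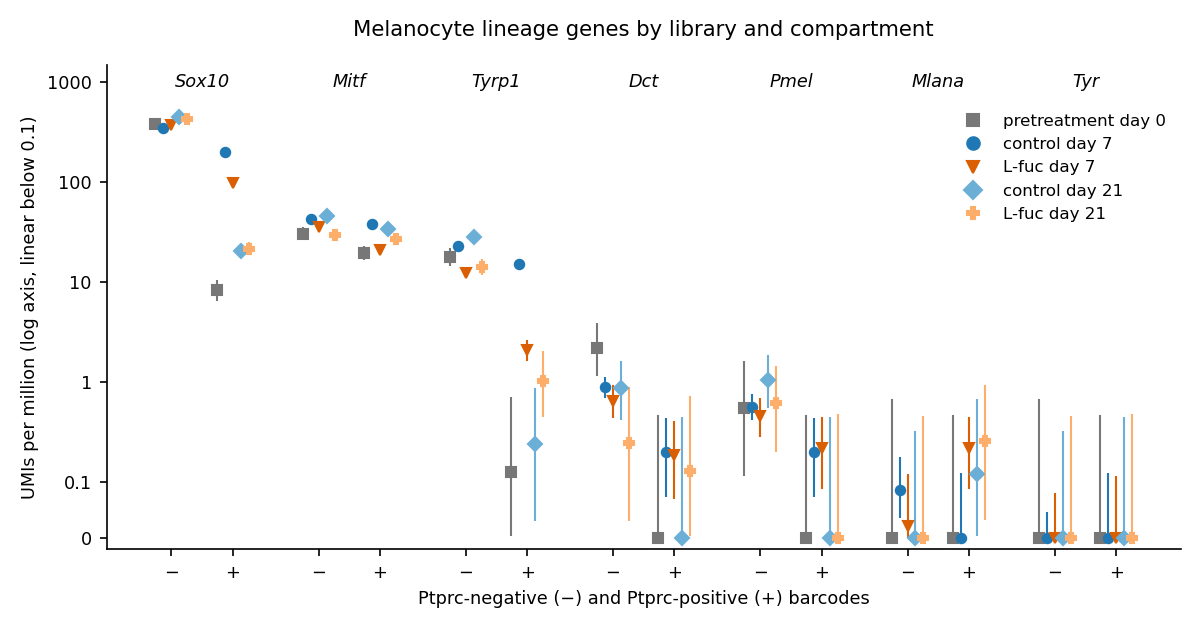
CPM of each member in Ptprc-negative (−) and Ptprc-positive (+) barcodes of the 5 libraries, on an axis that is logarithmic above 0.1 and linear below it, with exact Poisson 95% intervals of the counts. Sox10 sits between 348 and 455 in every Ptprc-negative sum, Mitf lies close together in both kinds of barcodes, and Tyr is at 0 throughout.

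Sox10, the transcription factor at the head of the list, was found at a like level in the Ptprc-negative barcodes of all 5 libraries. It stood at 380 CPM at pretreatment day 0, at 348 and 377 with control and L-fuc at day 7, and at 455 and 429 with control and L-fuc at day 21. In Ptprc-positive barcodes it stood at 8.36, 203, 98.6, 20.8 and 21.8 CPM in the same order. All 5 Ptprc-negative values were above all 5 Ptprc-positive values, and both day 7 libraries had far more Sox10 in their Ptprc-positive barcodes than the other libraries.

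Mitf, the other transcription factor, was found in both compartments. It stood at 30.7, 42.6, 36.2, 46.6 and 29.6 CPM in Ptprc-negative barcodes and at 19.9, 38.7, 21.1, 34.1 and 27.0 CPM in Ptprc-positive barcodes, again from pretreatment day 0 to L-fuc day 21. The Ptprc-negative value was the higher one in each of the 5 libraries, but the ranges over libraries overlapped.

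Tyrp1, an enzyme that acts late in the synthesis of brown and black melanin, stood at 17.9, 23.1, 12.4, 28.6 and 14.4 CPM in Ptprc-negative barcodes. In Ptprc-positive barcodes it stood at 0.127, 15.3, 2.11, 0.243 and 1.04 CPM. The ranges overlapped through 1 library: control day 7 had more Tyrp1 in Ptprc-positive barcodes than either L-fuc library had in Ptprc-negative ones. Its UMIs were concentrated, with up to 50 in 1 barcode of L-fuc day 7 and up to 37 in 1 barcode of control day 21.

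Dct, which converts dopachrome in the melanin pathway, stood at 2.22, 0.892, 0.657, 0.885 and 0.248 CPM in Ptprc-negative barcodes, on 12, 72, 30, 10 and 2 UMIs. In Ptprc-positive barcodes it stood at 0.201, 0.189 and 0.130 CPM at control day 7, L-fuc day 7 and L-fuc day 21 and at 0 in the other libraries. All 5 Ptprc-negative values were above all Ptprc-positive ones, on counts that are small throughout.

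Pmel, the protein of the fibrils on which melanin is laid down, stood at 0.555, 0.570, 0.460, 1.06 and 0.621 CPM in Ptprc-negative barcodes. It stood at 0.201 and 0.220 CPM in the Ptprc-positive barcodes of control day 7 and L-fuc day 7 and at 0 in the others. The groups did not overlap, but its overlap with Cdk2 and Dgka applies to all of these values. Mlana, a small melanosome membrane protein, had 7 UMIs at control day 7 and 1 at L-fuc day 7 in Ptprc-negative barcodes, and 7, 1 and 2 in the Ptprc-positive barcodes of L-fuc day 7 and of control and L-fuc at day 21. A difference in Mlana between the compartments was not detectable at this depth.

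The compartments were compared with edgeR's quasi-likelihood test on the UMIs summed per library and compartment, with the library as a block, so that the 5 libraries are the replicates. Of the 7 members 3 passed the filter on low counts, and 2 of them, Sox10 and Tyrp1, were called higher in Ptprc-negative barcodes, where 62.9% of the 14266 genes tested were called, 32.8% higher and 30.1% lower. Against that background 2 of 3 members is not a result about the list. The share of all genes whose compartments did not overlap was not counted, so the non-overlap of Sox10, Dct and Pmel is a description only. Sox10 was higher by 3.07 ± 0.73 on the log2 scale (SE, 5 libraries, adjusted p = 0.0135) and Tyrp1 by 3.07 ± 0.85 (adjusted p = 0.0224). Mitf differed by 0.092 ± 0.16 (adjusted p = 0.644), which did not pass. Dct, Pmel, Mlana and Tyr failed the filter and got no test there.

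The Sox10 call held when any 1 library was left out. The Tyrp1 call did not: its adjusted p was 0.0562 without pretreatment day 0, 0.0515 without L-fuc day 7 and 0.0631 without L-fuc day 21. Thinned to 1000 UMIs the Tyrp1 difference was smaller, at 1.72 (adjusted p = 0.0298). Without TMM scaling, which moved the median of all genes from 0.05 to 0.38, Mitf stood at 0.42 (adjusted p = 0.0359), close to that shift. Thinned to 1000 UMIs, Mitf stood at 0.56 (adjusted p = 0.0375), with the median of all genes at 0.003. In that setting 4370 of 9688 genes were called.

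Within each library Sox10 was lower among Ptprc-positive barcodes with a stronger Ptprc signal, least so at L-fuc day 21. Exactly 1 Ptprc UMI was held by 27.7% of Ptprc-positive barcodes at pretreatment day 0, 49.6% and 30.3% at day 7 (control, then L-fuc) and 18.8% and 29.7% at day 21. Among barcodes with at least 3 Ptprc UMIs, Sox10 stood at 0.984, 105, 46.5, 6.59 and 18.5 CPM, lower than over all Ptprc-positive barcodes in each library. Mitf stood at 16.1, 33.9, 17.7, 33.9 and 28.1 CPM among the same barcodes, near its value over all Ptprc-positive barcodes. Against this stricter compartment the Sox10 difference was 4.15 on the log2 scale (adjusted p = 0.00951, setting chosen after seeing the data).

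The share of Ptprc-negative barcodes with a Sox10 UMI was 54.8% (95% interval 50.2 to 59.3) at pretreatment day 0, 71.8% (70.9 to 72.6) at control day 7 and 69.4% (67.9 to 70.8) at L-fuc day 7. It was 83.5% (80.1 to 86.4) at control day 21 and 60.8% (56.2 to 65.2) at L-fuc day 21. Within each library the share rose with the depth of the barcode: among Ptprc-negative barcodes with under 2000 UMIs, 13.3% to 27.7% had Sox10 in the 5 libraries, and among those with 20000 UMIs or more, 94.5% to 98.5% had it. With each barcode thinned to 1000 UMIs the shares were 18.5%, 27.2%, 27.0%, 30.8% and 32.7%, so pretreatment day 0 stayed lowest, while control day 21 and L-fuc day 21 no longer stood in their unthinned order. In Ptprc-positive barcodes thinned in the same way Sox10 was found in 0.255%, 15.2%, 5.70%, 0.844% and 3.81%.

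**Figure D2:**
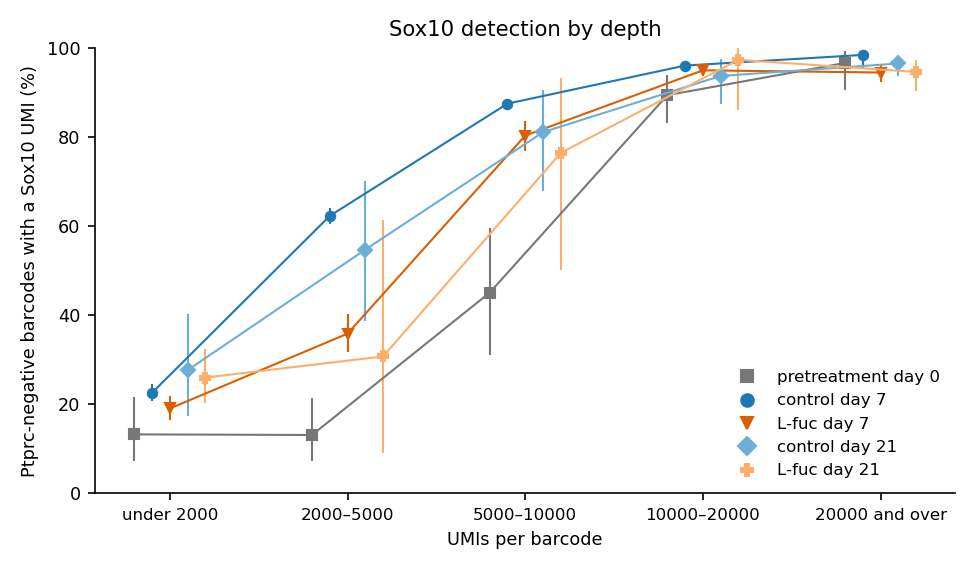
Share of Ptprc-negative barcodes with at least 1 Sox10 UMI (percent) in 5 bins of UMIs per barcode for the 5 libraries, with exact binomial 95% intervals. The share climbs from 13.3% to 27.7% in the shallowest bin to 94.5% to 98.5% in the deepest, and pretreatment day 0 is the lowest library at 5000 to 10000 UMIs, at 45.1%.

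The Ptprc-negative barcodes that had Sox10 held on average 7.81, 3.23, 6.13, 10.96 and 12.0 Sox10 UMIs each, with a maximum of 59 at L-fuc day 21. Mitf was sparser, with 1.48, 1.29, 1.50, 1.92 and 1.66 UMIs per barcode that had it and a maximum of 9. Summed UMIs alone do not tell a smaller share of expressing cells from less RNA per cell.

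T cell barcodes, with at least 2 UMIs of Cd3d, Cd3e and Cd3g, should lack Sox10 and gave the background level. These and the other immune barcodes below were Ptprc-positive and met the marker threshold of only 1 immune cell type. The 1687 Ptprc-positive barcodes that met more than 1 were set aside. T cell barcodes held Sox10 at 155 CPM in control day 7 (662 barcodes) and at 79.1 CPM in L-fuc day 7 (953 barcodes). At median depths of 3250.5 and 4155 UMIs, 31.1% and 9.86% of them had a Sox10 UMI. In the other libraries 0 of 265, 0 of 51 and 0 of 22 T cell barcodes had Sox10, which allows shares of up to 1.13%, 5.88% and 13.6%. Thinned to 1000 UMIs, the T cell shares at day 7 were 11.8% for control and 3.07% for L-fuc, below the 27.2% and 27.0% of Ptprc-negative barcodes. The Ptprc-negative level of Sox10 was above the T cell level in each of the 5 libraries. Whether the day 7 background came from free RNA or from doublets was not tested.

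**Figure D3:**
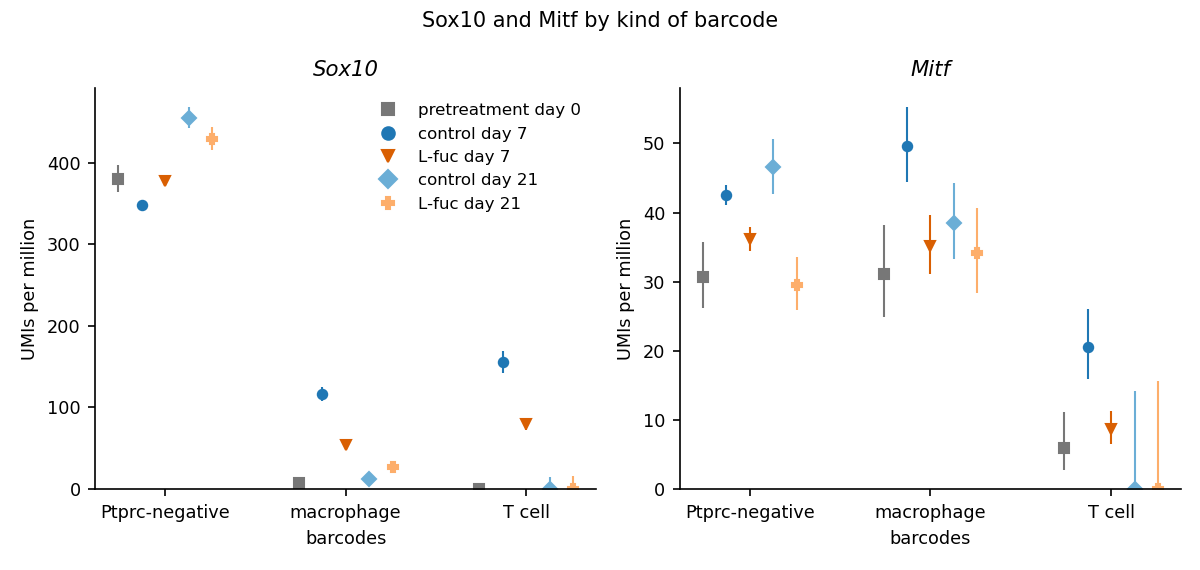
CPM of Sox10 (left) and Mitf (right) in Ptprc-negative barcodes and in macrophage and T cell barcodes of the Ptprc-positive compartment, 1 point per library with exact Poisson 95% intervals, axes from 0. Sox10 is highest in the Ptprc-negative column in each library, whereas Mitf in macrophage barcodes, at 31.1 to 49.6, reaches the Ptprc-negative range and lies above the T cell values of 0 to 20.5.

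Mitf had another distribution than Sox10 among immune barcodes. Macrophage barcodes were Ptprc-positive barcodes with more than 5 C1q UMIs that met no other immune marker threshold. Mitf stood at 31.1, 49.6, 35.2, 38.5 and 34.2 CPM in them and at 5.89, 20.5, 8.68, 0 and 0 CPM in T cell barcodes. The macrophage value was above the T cell value in each of the 5 libraries and the ranges did not overlap. In the edgeR test with the library as a block, chosen after these levels were seen, Mitf was 2.31 ± 0.35 higher on the log2 scale in macrophage than in T cell barcodes (adjusted p = 0.000921), where 19.8% of 12330 genes were called higher and 17.6% lower. Leaving out each library gave 2.16 to 2.83, and without TMM it was 2.01 (adjusted p = 0.00105). Sox10 differed by 0.49 ± 0.53 (adjusted p = 0.514) and Tyrp1 by 0.69 (adjusted p = 0.220) in the same comparison, so neither passed.

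In macrophage barcodes Sox10 stood at 6.71, 116, 54.1, 12.5 and 27.3 CPM. At day 7 this was below the T cell level, and in the other 3 libraries, on 19, 63 and 100 UMIs, it was above the T cell value of 0. The source of these UMIs was not tested. Between Ptprc-negative and macrophage barcodes Sox10 was 3.24 ± 0.61 higher on the log2 scale (adjusted p = 0.00387) and Tyrp1 2.51 higher (adjusted p = 0.0130), where 66.7% of 13469 genes were called, 34.4% higher and 32.3% lower. Mitf was lower in Ptprc-negative than in macrophage barcodes by this fit, at −0.56 ± 0.09 (adjusted p = 0.00241), but at −0.026 (adjusted p = 0.832) without TMM, so its call rests on the scaling. Both comparisons use the macrophage sums. Among the other immune barcodes, pooled over libraries, Mitf stood at 42.7 CPM in 66 mast cell barcodes, on 20 UMIs (interval 26.1 to 65.9), at 33.5 in 59 neutrophil barcodes on 7 UMIs (13.5 to 69.0) and at 29.1 in 91 pDC barcodes on 15 UMIs (16.3 to 47.9). It stood at 22.8 in NK cell barcodes (18.0 to 28.5) and at 8.54 in B cell barcodes (4.97 to 13.7). The first 3 intervals overlap one another, and the libraries pooled differ in the Sox10 level of their T cell barcodes.

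The ratio of Mitf to Sox10 UMIs was higher in macrophage than in Ptprc-negative barcodes in each library. Per 100 Sox10 UMIs there were 8.08, 12.2, 9.59, 10.2 and 6.88 Mitf UMIs in Ptprc-negative barcodes and 463, 42.7, 65.1, 310 and 125 in macrophage barcodes. In T cell barcodes the ratio was 13.2 at control day 7 and 10.98 at L-fuc day 7, close to the Ptprc-negative ratios of the same libraries. Tyrp1 stood at 4.72, 6.64, 3.30, 6.28 and 3.36 UMIs per 100 Sox10 UMIs in Ptprc-negative barcodes. It was 6.11 in the T cell barcodes of control day 7 and 1.60 in those of L-fuc day 7.

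Whether the members occurred together in the same barcode was asked with each Ptprc-negative barcode thinned to 2000 UMIs, since detection of any gene rises with depth. Mitf was found in 6.94% of barcodes with Sox10 and 1.68% of those without at pretreatment day 0, in 8.81% and 8.996% at control day 7 and in 7.43% and 7.03% at L-fuc day 7. At day 21 the shares were 8.74% and 8.53% in control and 6.38% and 4.39% in L-fuc. The odds ratios were 4.37 (1.22 to 19.4), 0.977 (0.849 to 1.12), 1.06 (0.803 to 1.40), 1.03 (0.521 to 2.06) and 1.49 (0.432 to 5.81), so at 2000 UMIs only the interval of pretreatment day 0 lay above 1. That did not hold at other depths: it was 3.08 (0.873 to 9.98) at 1000 UMIs and 1.32 (0.609 to 3.00) at 4000. At 1000 UMIs only the interval of control day 7 lay above 1, at 1.33 (1.10 to 1.60), and at 4000 only that of L-fuc day 7, at 1.57 (1.21 to 2.04). Without thinning they were 11.7, 2.81, 7.56, 5.42 and 5.77, so the joint detection moved with depth. At each of the 3 fixed depths the interval held 1 in 4 of 5 libraries, and the library that stood apart was another one each time.

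Tyrp1 was found with and without Sox10 in 7.64% and 2.94% of barcodes at pretreatment day 0, 4.34% and 3.79% at control day 7, and 1.29% and 1.58% at L-fuc day 7. It was found in 3.85% and 3.32% at control day 21 and in 2.13% and 2.63% at L-fuc day 21. More Sox10 UMIs did not go with more Tyrp1 at day 7: from 0 to 3 or more Sox10 UMIs the share with Tyrp1 was 3.79%, 4.61%, 3.83% and 3.76% in control and 1.58%, 1.33%, 1.25% and 1.22% in L-fuc. With Mitf in place of Sox10, Tyrp1 was found in 5.16% of barcodes with Mitf and 3.95% of those without at control day 7, and in 2.62% and 1.36% at L-fuc day 7. The share was higher with Mitf in all 5 libraries, on 1, 46, 6, 4 and 2 joint barcodes from pretreatment day 0 to L-fuc day 21.

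**Figure D4:**
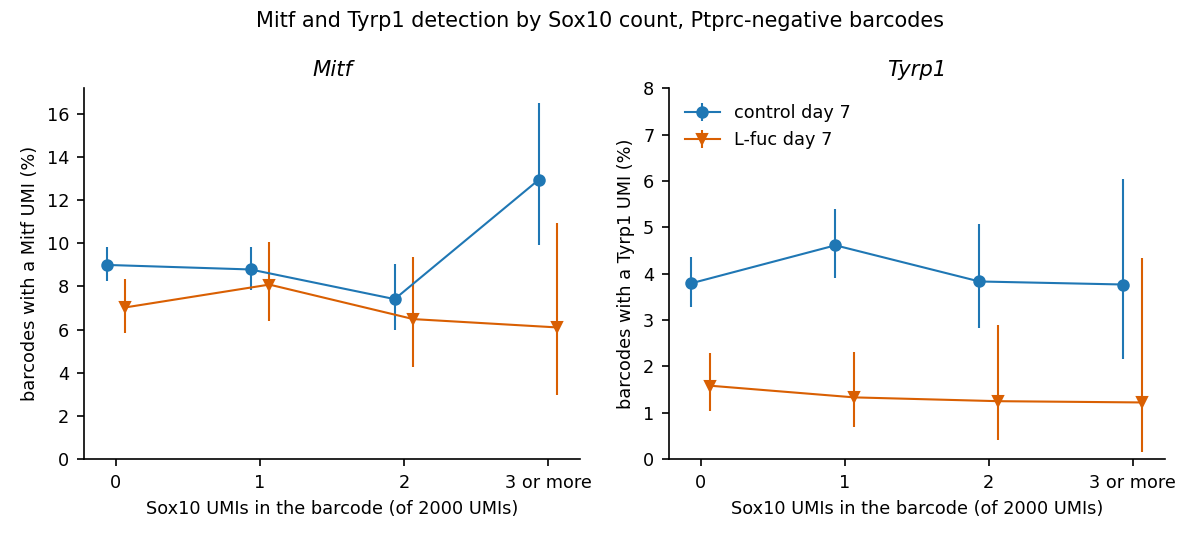
Share of Ptprc-negative barcodes with a Mitf UMI (left) and with a Tyrp1 UMI (right), in percent, by the number of Sox10 UMIs in the barcode after thinning to 2000 UMIs, for both day 7 libraries with exact binomial 95% intervals. Tyrp1 stays between 3.76% and 4.61% in control and between 1.22% and 1.58% in L-fuc, and Mitf reaches 12.9% at 3 or more Sox10 UMIs in control but 6.10% in L-fuc.

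The pigment genes seldom met in 1 barcode even with all UMIs counted. Tyrp1 and Dct were found together in 3, 15, 6, 5 and 0 barcodes. Dct was found in 6.98%, 1.48%, 2.94%, 6.94% and 0% of barcodes with Tyrp1 and in 0.458%, 0.324%, 0.442%, 0.204% and 0.462% of those without, so it was more frequent beside Tyrp1 in 4 of 5 libraries, at depths that were not matched. At least 2 pigment genes (of Tyr, Tyrp1, Dct, Pmel and Mlana) were found in 3, 25, 10, 8 and 0 barcodes and 3 or more in 1, 1, 1, 0 and 0.

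Among Ptprc-negative barcodes with Sox10, thinned to 2000 UMIs, those with a Tyrp1 UMI (11, 210, 19, 11 and 3 in the order of libraries) were set against those without, a comparison added after seeing the data. In the edgeR test with the library as a block, 3 of 6349 genes were called (0.0473%, 0.0158% higher and 0.0315% lower), none of them a member, and 312 had an unadjusted p under 0.05. Egfl8, a secreted protein with EGF-like domains, was higher in barcodes with Tyrp1 by 2.06 on the log2 scale (adjusted p = 6.22e-07), with 32 UMIs among 210 barcodes and 220 among 4626 at control day 7 and 10 among 19 and 40 among 1449 at L-fuc day 7. Cytl1 (−2.63, adjusted p = 6.73e-06) and Fcer1g (−2.26, adjusted p = 0.000856) were lower. These 3 genes were named after their values were seen. Fcer1g stood at 443 CPM with Tyrp1 and 634 without at control day 7, and had 0, 3, 3 and 2 UMIs with Tyrp1 in the other libraries. Egfl8 was called with each library left out in turn, whereas Cytl1 was not called without L-fuc day 7, and Fcer1g was called only without control day 7 and without L-fuc day 21. The number of genes called was 1 to 18 across these fits, with 18 without L-fuc day 21. Mitf (0.30, adjusted p = 0.946) and Sox10 (−0.51, adjusted p = 0.946) did not pass. At control day 7 Sox10 stood at 693 CPM with Tyrp1 and 726 without. No fit without TMM was run for this comparison, so the part of the scaling in its log2 values was not tested.

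L-fuc was compared with control in the Ptprc-negative barcodes as 1 library against 1 library, so there is no replicate and no test. Sox10 stood at 377 CPM with L-fuc and 348 with control at day 7, a ratio of 1.08 (1.06 to 1.11), and at 429 and 455 CPM at day 21, a ratio of 0.943 (0.903 to 0.985). The ratio lay above 1 at one time and below 1 at the other. With barcodes thinned to 1000 UMIs the ratios were 1.01 (0.952 to 1.08) and 1.03 (0.840 to 1.26).

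Mitf stood lower with L-fuc at both times with all UMIs counted, with a ratio of 0.850 (0.801 to 0.901) at day 7 and 0.635 (0.542 to 0.741) at day 21. Tyrp1 stood lower as well, with 0.539 (0.490 to 0.593) at day 7 and 0.504 (0.404 to 0.625) at day 21. Per Sox10 UMI, the Tyrp1 ratios were 0.497 and 0.534 and the Mitf ratios 0.783 and 0.673. Dct had 30 and 72 UMIs at day 7 and 2 and 10 at day 21, with ratios of 0.737 (0.464 to 1.14) and 0.281 (0.0299 to 1.32), and Pmel had ratios of 0.807 and 0.585, and the intervals of both genes held 1 at both times.

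The Tyrp1 ratio at day 7 was 0.442 in thinned barcodes. At day 21 the thinned ratio was 1.27 (0.521 to 3.09), on 12 UMIs in each library. For Mitf the thinned ratios were 0.784 (0.651 to 0.938) at day 7 and 0.951 (0.513 to 1.74) at day 21, on 21 UMIs with L-fuc and 28 with control. So at even depth the day 21 difference was not detectable for either gene. The libraries compared also differed in the share of Ptprc-negative barcodes with a hemoglobin UMI, 95.6% with L-fuc and 54.2% with control at day 7. The share with at least 2 fibroblast marker UMIs was 49.6% with L-fuc and 76.7% with control at day 21. With all UMIs counted, this marker share was 87.2% with Sox10 and 23.7% without in control day 21. In L-fuc day 21 it was 74.3% and 11.3%. Thinned to 2000 UMIs the share with Sox10 was no longer the higher one. It was 28.7% with Sox10 and 33.2% without in control day 21, and 27.0% and 30.7% in L-fuc day 21. Of the fibroblast markers, Col1a1, Col1a2, Col3a1 and Pdgfra stood higher with L-fuc at day 21, and Dcn and Lum stood lower. The part of these differences in the ratios was not tested.

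**Figure D5:**
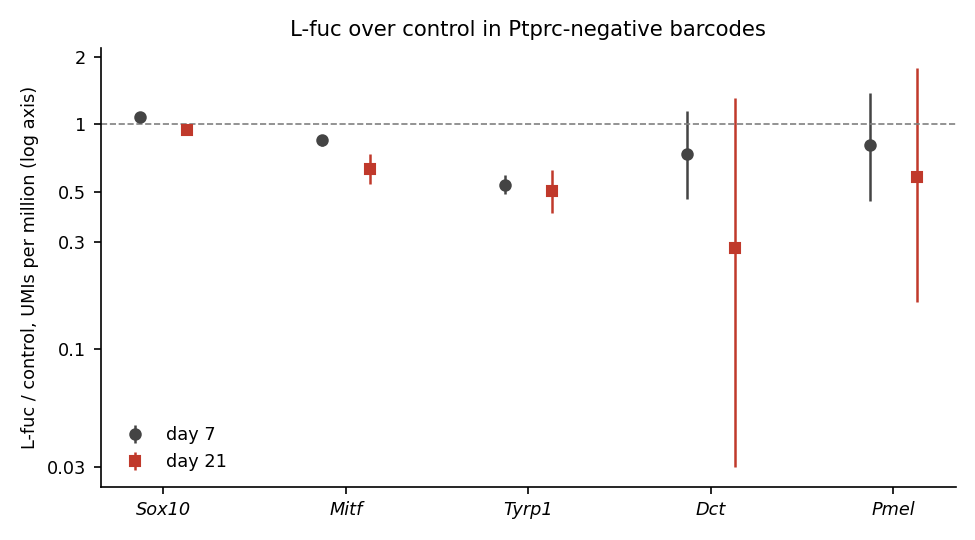
Ratio of CPM in the Ptprc-negative barcodes of L-fuc over control (log axis) for 5 members at day 7 (circles) and day 21 (squares), with exact conditional 95% intervals of the counts; the dashed line marks a ratio of 1. Tyrp1 lies at 0.539 and 0.504, Mitf at 0.850 and 0.635, Sox10 near 1, and the intervals of Dct and Pmel cross 1.

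The rest of the lineage programme was described through lists chosen with earlier results of these data known, tested in the same fit, where 32.8% of all genes were called higher and 30.1% lower and the median of all genes was 0.05 on the log2 scale. Among 14 other neural crest and melanocyte factors, 8 were higher in Ptprc-negative barcodes, 5 were lower and 1 was not called, with a median difference of 1.70. Lef1 (median 108 CPM over the Ptprc-negative sums), a mediator of WNT signals, and Foxd3 (106 CPM) and Pax3 (71.0 CPM), factors of the early neural crest, were higher by 1.55, 2.89 and 2.91. Zeb2, at 178 CPM, stood at −0.66 and did not pass (adjusted p = 0.0597). Lower were Ets1, Irf4 and Tfeb, Tfe3 and Tfec, the last 3 of which are the relatives of Mitf, at −1.46, −1.06 and −3.25.

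Among 11 receptors and ligands of melanocytes 9 were tested, with 5 higher, 3 lower and 1 not called, and the median was 1.09. Erbb3, a neuregulin receptor of neural crest cells, was higher by 2.57 at a median of 133 CPM, Kitl, the ligand of KIT, by 2.73, Nrg1 by 2.06 and Met by 1.09. Kit itself, the receptor that melanocytes need, was lower, at −3.01 and a median of 0.555 CPM, as were Hgf (−3.80) and Pomc (−3.91).

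Of 26 other melanosome and pigment genes 21 were tested, and 3 were higher, 12 lower and 6 not called, with a median of −0.65. Without TMM these counts were 3, 9 and 9. Those higher were Bloc1s1 (0.34), a subunit shared with lysosome transport, Rab38 (2.66), which carries enzymes to melanosomes, and Mlph (2.79), which links melanosomes to the motor that moves them. Ap3b1 and Dtnbp1, general factors of vesicle transport, were lower, at −0.41 and −1.19. The genes called lower were not only such general factors. They included Rab32 (−4.02), Rab27a (−2.07) and Myo5a (−0.65), named after their values were seen. The transporters Slc45a2, Oca2 and Slc24a5 and the receptor Gpr143, which are found mostly in pigment cells, had too few UMIs to be tested, as had Trpm1.

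Of 6 other reported MITF targets 4 were tested, and Tbx2 (2.58), Dicer1 (0.44) and Cdk2 (0.30) were higher and Bcl2 (0.30, adjusted p = 0.336) did not pass, with a median of 0.37. Without TMM that median was 0.70, beside 0.38 for all genes. All 9 tested of 12 Schwann cell and SOX10-linked genes were higher, with a median of 2.69. They included Pou3f1, a factor of Schwann cell development (2.88, median 297 CPM), and Gjc3, a gap junction protein (2.69). Of 10 genes linked to undifferentiated melanoma 6 were higher, 2 lower and 2 not called, among them Vim (0.76), Tead1 (2.96) and Axl (0.012, adjusted p = 0.968), with Tgfbi (−5.97) and Jun (−0.52) lower.

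Markers of other cells moved with the compartments too. All 6 fibroblast markers were higher in Ptprc-negative barcodes, with a summed level of 483 to 3617 CPM there and 8.61 to 316.7 CPM in Ptprc-positive barcodes, and their part in the members' results was not tested. Barcodes with Sox10 held Col1a1, a fibroblast collagen, at 0.440, 32.4, 3.46, 1.79 and 6.30 CPM, against 419.9, 309, 2266, 10692 and 11920 CPM in Ptprc-negative barcodes without Sox10. Thinned to 2000 UMIs the values without Sox10 were 126, 90.8, 280, 1410 and 1531 CPM and those with it 0 to 25.2 CPM. Before thinning, Col1a1 was detected in only 0.461%, 3.45%, 9.27%, 20.4% and 6.45% of the barcodes without Sox10, which were 217 at pretreatment day 0. In those with Sox10 it was detected in 0.760%, 2.94%, 2.60%, 2.99% and 5.21%, at depths that were not matched. With all UMIs counted, Lum, another marker on the list, was detected in 54.1% to 84.4% of barcodes with Sox10 and Col1a1 in 0.760% to 5.21%. Most barcodes with Sox10 and Lum thus had no Col1a1 UMI. Thinned to 2000 UMIs, Lum was more frequent with Sox10 except at control day 21, at 38.1% with and 40.8% without. At day 21 its level with all UMIs was higher without Sox10, like that of Col1a1. It was 1303 against 330 CPM in control and 638 against 232 CPM in L-fuc. At the other times it was higher with Sox10. Joint detection of Lum and Col1a1 was not counted. The endothelial list had 2 tested genes, Pecam1 and Kdr, both lower, and Cdh5 and Cldn5 failed the filter on low counts. At L-fuc day 21, however, Cdh5, Cldn5 and Kdr stood higher in Ptprc-negative barcodes. They were at 7.70, 6.21 and 4.47 CPM there, against 0.130, 0 and 2.74 CPM in Ptprc-positive barcodes. Pecam1 stood lower in that library, at 7.57 against 42.2 CPM. Krt5, Krt14 and Krt15 of the keratinocyte list failed the filter as well, and Krt10 was higher by 1.85. Almost all UMIs of Krt5, Krt14 and Krt15 were in the Ptprc-negative barcodes of L-fuc day 7, at 7.12, 5.92 and 1.31 CPM. The 5 red cell genes were not called, and all tested T cell, B cell, neutrophil, NK cell and pDC markers were lower, as were 2 of 3 mast cell markers. The macrophage markers were lower too, but they are the C1q genes capped in choosing Ptprc-negative barcodes. Their direction was thus set by the rule and is not a result.

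The genes whose levels went most closely with each member were ranked by Pearson's r of log2(CPM + 10) over the 10 sums, among 9079 genes with a mean of at least 10 CPM. For Sox10 they were Nkd2 (0.999), Sparc, Cpe, S100a16 and Fkbp9 (0.998), and for Tyrp1 they were Car14 (0.991), Prss12, Cux1, Acsl3 and Lpar4 (0.983). For Mitf the values were lower, from Clba1 (0.947) through Rap2a, Ocrl and D230025D16Rik to Cmtm4 (0.932). The closest genes to Dct began with Sars (0.948) and those to Pmel with Orai1 (0.981), on few UMIs of either member. The 10 sums share libraries and compartments, so these values describe the ranking only.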

How the data were processed

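Single cells from SW1 tumors were profiled in 5 droplet libraries. The authors aligned the reads to mm10 and counted UMIs with Cell Ranger (3.0 in the submitters' notes, 7.1.0 in the matrix headers), and deposited raw counts of UMIs for each gene and barcode, without normalization. The paper's own filters, Seurat 4.0 steps and doublet calls are not in these matrices, and the T cell receptor libraries were not used here. The libraries held 1428 to 20741 barcodes and 14439185 to 119047810 UMIs.

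Barcodes with at least 500 genes and at most 10% mitochondrial UMIs were split by Ptprc and C1q as described, and counts were summed per library and compartment. The sums were compared with edgeR 4.0.16 (TMM, filterByExpr, quasi-likelihood test, library block, Benjamini-Hochberg adjustment over all genes, threshold 0.05) in R 4.3.3, with DESeq2 1.42.0 as an alternative. The scripts were tested on simulated data. Shares have exact Clopper-Pearson intervals, sums exact Poisson intervals and ratios of counts exact conditional intervals, at 95%, and a count of 0 was given a limit of 3 counts. Thinning drew 1000, 2000 or 4000 UMIs per barcode without replacement and left out shallower barcodes. Intervals and thinning used scipy 1.17.1 and numpy 2.4.6 in Python 3.11.15, with pandas 2.3.3 for tables and matplotlib 3.10.9 for plots.

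Named genes are the members, up to 4 members of each list by their summed level with those against its direction, and the 5 genes most like each member; some genes that this rule names are not reported here. The members and lists were chosen with earlier results of these data known. Each library is 1 pool of mice, so conditions have no replicates and p-values between compartments measure the spread over libraries that differ in treatment and time.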

Additional observations from a re-analysis of the deposited data

Results flagged for a closer look

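The ratio of Sox10 with L-fuc over control in Ptprc-negative barcodes lay on opposite sides of 1 at the 2 times, at 1.08 at day 7 and 0.943 at day 21. There was 1 library per arm and time, and the difference between the times was not tested.

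A further 3 values stood apart from the other 4 libraries of their compartment, as the gap to the nearest library, divided by the whole range, passed Dixon's critical value at 95%, which chance alone gives in about 1 of 20 such groups. Tyrp1 in the Ptprc-positive barcodes of control day 7 stood at 15.3 CPM, with the next library at 2.11. Pmel in the Ptprc-negative barcodes of control day 21 stood at 1.06 CPM, with the next at 0.621, on 12 UMIs. Mlana in the Ptprc-negative barcodes of control day 7 stood at 0.0867 CPM, with the next at 0.0219, on 7 UMIs. These 5 libraries differ in treatment and time and are not replicates of 1 condition.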

How the results depend on the processing

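No paired analysis was possible because each condition has 1 pooled library and no mouse is identified across libraries, so this applies to L-fuc over control, while the compartments were paired by library through the block. For the comparison of compartments 8971 genes were called (4675 higher, 4296 lower in Ptprc-negative barcodes). Thinning to 1000 UMIs left 4370 calls, and without TMM there were 9480, split 6222 to 3258. The number of members called, all higher, was 2, or 3 when thinned, without TMM and without the filter on low counts. It was 1 without the library block and 1 to 2 when a library was left out. Members tested were 3, or 6 without the filter and 3 to 5 with a library left out. Among all genes, 2089 of 9688 were called higher when thinned and 6222 of 14266 without TMM. The counts were 4448 of 23452 without the filter and 3623 of 12906 without the block. With a library left out, 3178 to 4505 genes were called higher among 13827 to 15350 tested. Tyrp1 stood at 1.72 when thinned (adjusted p = 0.0298), at 2.10 without the block (adjusted p = 0.0619) and between 2.54 and 3.87 when a library was left out. Mitf was called higher when thinned (0.56, adjusted p = 0.0375) and without TMM (0.42, adjusted p = 0.0359), and leaving out a library gave −0.046 to 0.23, with the reversed −0.046 without L-fuc day 7. Without the filter on low counts Dct was tested and called (2.45, adjusted p = 0.0341), and it was also called without L-fuc day 21 (2.64, adjusted p = 0.0408). It was tested but not called without pretreatment day 0 (adjusted p = 0.0511) and without control day 21 (adjusted p = 0.0523). With a library left out, Dct passed the filter through its Ptprc-negative counts, as its Ptprc-positive sums reached at most 0.201 CPM, so that call is not separate support. Pmel was tested in the same fits and not called (adjusted p = 0.0636 to 0.0958).

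For L-fuc over control, Sox10 at day 7 was 1.06 with at least 200 genes and 1.01 thinned to 1000 UMIs. At day 21 the thinned ratios lay above 1, at 1.03 (0.840 to 1.26) for Sox10 and 1.27 (0.521 to 3.09) for Tyrp1, but both intervals held 1.

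The share of Ptprc-negative barcodes with Sox10 with at least 200 genes was 48.0% at pretreatment day 0, 66.2% at control day 7, 46.5% at L-fuc day 7 and 67.4% at control day 21. With at most 20% mitochondrial UMIs it was 70.2% at control day 7 and 79.5% at control day 21. With C1q at 0 it was 73.1% at control day 7, 78.6% at L-fuc day 7, 87.3% at control day 21 and 72.5% at L-fuc day 21. Thinned to 1000 UMIs it was 18.5%, 27.2%, 27.0%, 30.8% and 32.7% in the order of libraries used above.

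The odds ratio of Mitf with Sox10 was 3.08 at 1000, 1.32 at 4000 and 11.7 at all UMIs in pretreatment day 0, 1.33 at 1000, 1.14 at 4000 and 2.81 at all UMIs in control day 7, 1.57 at 4000 and 7.56 at all UMIs in L-fuc day 7, 5.42 at all UMIs in control day 21 and 0.372 at 1000 UMIs in L-fuc day 21. Apart from fewer UMIs under thinning, the cause of these changes was not tested. Leaving out the deepest 2% of barcodes changed no call of a member. Dct had 2 to 72, Pmel 3 to 46 and Mlana 0 to 7 UMIs in the Ptprc-negative barcodes of a library, which limits the changes in them that can be seen.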
